A study of Mus musculus with 42 samples.

Results

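The nuclear-encoded subunits of the oxidative phosphorylation system were followed in mouse bone marrow-derived macrophages. Members were taken by symbol: protein-coding genes starting with Nduf (complex I, without the Ndufaf assembly factors), Uqcr, Atp5 and Cox4 to Cox8, together with Sdha to Sdhd and Cyc1. This gave 86 genes among the 37310 genes of the count table, with 38 in complex I, 4 in complex II, 9 in complex III, 18 in complex IV and 17 in complex V. Macrophages were grown from marrow of male mice in medium conditioned by L929 cells. Libraries labelled KO came from mice carrying LysM-Cre with Irf5 flox/flox, and libraries labelled WT from wild-type mice. Cre under LysM control is active in myeloid cells. Cultures were sampled as Control at 0, 2 and 24 h, and after palmitate (a saturated fatty acid, given with albumin) or lipopolysaccharide (LPS, a bacterial cell wall component) for 2 and 24 h, which makes 14 groups of 3 libraries and 42 libraries in all.

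The first 4 respiratory complexes of the inner mitochondrial membrane pass electrons from NADH and succinate to oxygen and, except for complex II, pump protons, and complex V (ATP synthase) uses the proton gradient to make ATP. Complexes I, III, IV and V are built from nuclear-encoded subunits and a few subunits encoded in mitochondrial DNA, whereas all subunits of complex II are nuclear. Macrophages given LPS are known for a shift towards glycolysis, with succinate oxidation at complex II and reverse electron flow into complex I as sources of reactive oxygen species.

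Library totals ranged from 2848793 to 7743442 counts, so that 3 counts corresponded to 0.387 to 1.05 CPM (counts scaled to library size by the TMM method of edgeR). Nothing in the labels says whether the 3 libraries of a group came from separate cultures, so p-values measure the spread between libraries, which may be technical. Irf5 transcript was not lower in the libraries labelled KO. Its log2 difference from WT was positive in all 7 conditions and passed the test in 4 of them, with 0.47 (SE 0.06) at Control 0 h. Lyz2, the gene that carries the LysM-Cre insertion, was lower in the libraries labelled KO in all 7 conditions, by -0.51 to -1.11 on the log2 scale. The 6 LPS response genes were higher in every LPS comparison, and Plin2, Angptl4 and Cpt1a, genes of fatty acid handling, were higher in every palmitate comparison. Erythroid markers and T or NK cell markers were too low to be tested. Since these are bulk libraries, fewer cells of a type and less RNA per cell cannot be told apart.

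Of the 86 members, 79 passed the filter on low counts, out of 11624 genes tested. The 7 that did not were Ndufa4l2 and 6 tissue-restricted isoforms of complex IV. Ndufa4l2, a paralogue of Ndufa4 known from hypoxia, reached at most 1 count, in 2 of the libraries. Cox4i2, the lung isoform of Cox4i1, reached at most 4 counts, while Cox4i1 had a median of 1067 counts per library. Cox6b2, the testis form of Cox6b1, reached at most 3 counts, against a median of 295 for Cox6b1. Cox7a1, the heart and muscle form of Cox7a2, had a median of 3 counts, against 135.5. Cox7b2 reached at most 1 count, Cox8b at most 2, and Cox8c was at 0 in all 42 libraries, whereas their widely expressed relatives Cox7b and Cox8a had medians of 399 and 452.5 counts. The libraries held the widely expressed isoform of each pair in excess.

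Among the members that were tested, 70 had a median of at least 100 counts per library. Levels varied far more between members than between conditions. The ratio of the highest to the lowest group mean had a median of 1.54 over the tested members and was under 2 for 72 of them. The highest group mean was found at LPS 24 h for 57 of the 79, in WT for 36 and in KO for 21. In CPM, Atp5a1 and Atp5b (the alpha and beta subunits of the catalytic head of ATP synthase), Sdha, Cox4i1 and Cox6c together held 28% of the summed level.

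Per kilobase of all annotated exons, Atp5a1 was highest at 147 CPM, followed by Cox8a at 133, Cox4i1 at 122 and Atp5h at 110. Cox6c, at 49.7, lay below other members such as Uqcrb at 87.9. With principal transcript lengths the order of these genes was another one, with Cox4i1 at 246, Cox6c at 240, Atp5h at 236 and Atp5a1 at 187 CPM per kilobase. Cox8a, at 150, then lay below Atp5mpl at 174 and Atp5b at 165. At the other end, over all exons, Cox6a2 (the heart and muscle form of Cox6a1) had 1.24 CPM per kilobase, Atp5s 0.812 and Ndufb2 0.312, the last from a median of 10 counts. Subunit c, which forms the rotating ring of ATP synthase, is encoded by 3 genes whose mature proteins are the same. On this per-kilobase scale Atp5g3 held 22.1 CPM, Atp5g2 10.5 and Atp5g1 4.18, so Atp5g3 was the highest of the 3. These are transcript levels over all annotated exons, and with principal transcript lengths the order of the 3 genes was the same, at 66.7, 24 and 4.36.

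LPS for 24 h was the treatment with which the subunits moved. In WT macrophages, 47 of the 79 tested members were higher than in Control 24 h and 0 were lower (edgeR quasi-likelihood test, Benjamini-Hochberg adjusted p under 0.05). Across all genes tested, 19.6% were called higher and 19.9% lower. In KO macrophages 38 members were higher and 0 lower, against 19.9% and 21% of all genes. The median log2 fold change of the members was 0.36 in WT, with quartiles of 0.21 and 0.48, and 0.27 in KO, whereas the median of all genes tested was -0.01 in both. The 3 LPS libraries lay wholly above the 3 Control libraries for 51 members in WT and 47 in KO, a pattern seen for 24.3% and 24.7% of all genes.

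**Figure D1:**
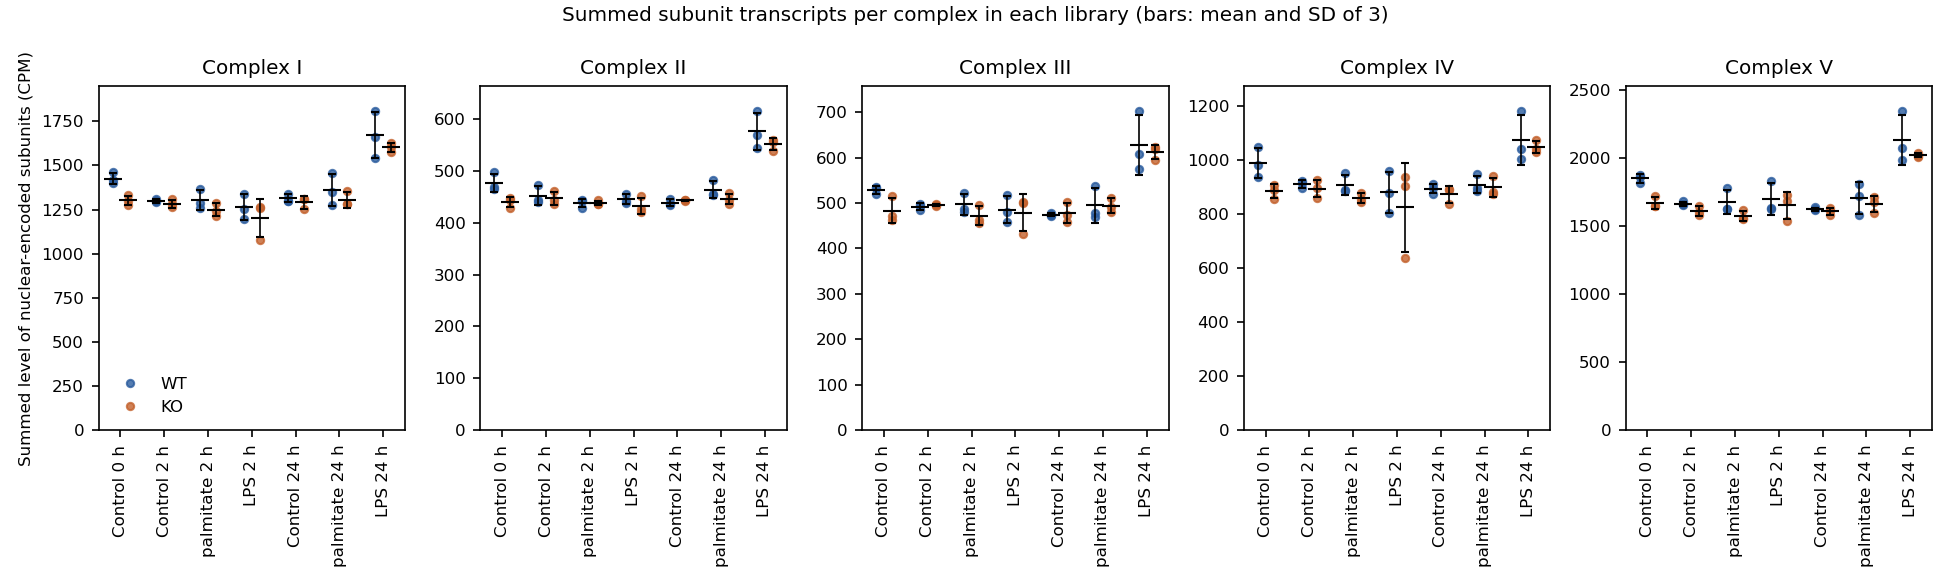
Summed level (CPM, axis from 0) of the nuclear-encoded subunits of each complex in every library, WT in blue and KO in orange, with black bars for the mean and SD of 3 libraries. In all 5 complexes the LPS 24 h libraries lie above the Control 24 h libraries of the same genotype, and palmitate libraries lie near their Controls.

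Summed over all members, the WT level was 4747 ± 41.8 CPM at Control 24 h and 6086 ± 507 CPM at LPS 24 h (SD, n = 3), with single LPS libraries at 5655, 6645 and 5957. The KO level was 4693 ± 108 CPM at Control 24 h and 5836 ± 41.9 CPM at LPS 24 h. The groups did not overlap in either genotype. All complexes shared in the difference. The summed level of complex I was 27.3% higher with LPS in WT and 24.2% in KO, that of complex II 31.3% and 24.4%, and that of complex III 32.5% and 28.1%. Complex IV went from 893 ± 17.2 to 1073 ± 92.9 CPM in WT and from 872 ± 31.8 to 1047 ± 23.7 CPM in KO. Complex V went from 1627 ± 11.4 to 2137 ± 185 CPM in WT and from 1610 ± 24.5 to 2023 ± 15.3 CPM in KO. These sums carry no test.

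In complex II, the succinate dehydrogenase that also belongs to the TCA cycle, all 4 subunits were higher with LPS at 24 h in WT and 2 of 4 in KO. Sdhb, the iron-sulphur subunit (chromosome 4, 140961203 to 140979193, plus strand, GRCm38), read 91.0, 96.8 and 84.4 CPM in the WT Control libraries and 134, 158 and 151 CPM with LPS. In KO it read 101, 84.7 and 83.4 CPM against 145, 152 and 148 CPM. No LPS library overlapped a Control library, which gave log2 fold changes of 0.70 in WT (SE 0.08, adjusted p = 1.93e-10) and 0.74 in KO (SE 0.08, adjusted p = 5.13e-11). Sdha, the flavoprotein that oxidises succinate, went from 235 ± 0.198 to 281 ± 21.1 CPM in WT and from 233 ± 8.52 to 267 ± 12.1 CPM in KO, smaller changes of 0.26 (adjusted p = 0.000148) and 0.20 (adjusted p = 0.0028).

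The membrane anchors Sdhc and Sdhd gave less even results. Sdhd read 46.9, 45.8 and 45.9 CPM in WT Control and 66.1, 76.1 and 67.5 CPM with LPS, higher by 0.60 on the log2 scale (adjusted p = 3.39e-06). In KO it read 48.7, 48.3 and 50.8 CPM against 59.3, 51.2 and 61.1 CPM, a change of 0.22 that missed the threshold (adjusted p = 0.0892). The WT groups stood well apart, whereas the lowest KO LPS library lay just above the Control libraries. Sdhc changed by 0.21 in WT (adjusted p = 0.0338) and by 0.13 in KO (adjusted p = 0.207). The WT call for Sdhc was lost with DESeq2, with only the compared libraries, with all genes of at least 1 count, and without WT Control 24 h library 1 or 2 or WT LPS 24 h library 3.

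Complex I, the NADH dehydrogenase, had 20 of 37 tested subunits higher in WT and 15 in KO, with medians of 0.38 and 0.26. Of its 7 nuclear core subunits, which carry the flavin and the iron-sulphur clusters, 4 were called in each genotype. Ndufs7, a core subunit near the quinone site, changed by 0.54 (adjusted p = 1.32e-05) in WT and 0.57 (adjusted p = 3.8e-06) in KO. Ndufs1, the largest core subunit, was at 61.2, 59.3 and 65.7 CPM in WT Control and 63.2, 65.2 and 68.6 CPM with LPS, so that the groups overlapped. Ndufs1 was named after its values were seen.

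Among the accessory subunits of complex I, Ndufc2 (chromosome 7, 97400003 to 97407802, plus strand) changed most clearly. It read 38.2, 29.998 and 32.5 CPM in WT Control and 54.4, 66.2 and 57.3 CPM with LPS. The KO libraries read 34.3, 32.1 and 30.3 CPM and 55.5, 51.0 and 49.8 CPM. Both genotypes had LPS libraries wholly above Control, with log2 fold changes of 0.84 (SE 0.12, adjusted p = 8.14e-08) and 0.70 (SE 0.12, adjusted p = 3.77e-06). Ndufc2 overlaps the annotated gene Gm16053 on the same strand, where reads could be split between both. Further accessory subunits called in both genotypes were Ndufb9 (0.43 and 0.53), Ndufa6 (0.40 and 0.51), Ndufa10 (0.31 and 0.50) and Ndufa11 (0.49 and 0.68). Ndufab1, the mitochondrial acyl carrier protein, was called in KO (0.62, adjusted p = 4.31e-06), whereas WT showed 0.26 without passing the test.

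In complex III, which passes electrons from ubiquinol to cytochrome c, 6 of 9 subunits were higher in WT and 7 in KO. Cyc1, the cytochrome c1 subunit (chromosome 15, 76343523 to 76346260, plus strand), read 37.1, 30.9 and 35.3 CPM in WT Control and 47.4, 57.9 and 48.1 CPM with LPS. In KO it read 40.5, 37.0 and 33.8 CPM and then 55.5, 54.0 and 58.1 CPM. All LPS libraries exceeded all Control libraries, and the log2 fold changes were 0.58 (SE 0.14, adjusted p = 0.000617) and 0.60 (adjusted p = 0.000285). The small subunits Uqcrb (0.57 and 0.35) and Uqcrq (0.59 and 0.56) were also called in both. The hinge protein Uqcrh gave 0.13 in WT and -0.12 in KO and Uqcr11 -0.12 and 0.07, none of them past the threshold.

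In complex IV, cytochrome c oxidase, 6 of 12 tested subunits were higher in WT and 5 in KO. Cox5a (chromosome 9, 57521274 to 57532426, plus strand), which binds the matrix side of the enzyme, read 66.0, 48.9 and 57.8 CPM in WT Control and 94.0, 94.0 and 102 CPM with LPS. The KO libraries read 43.7, 55.2 and 54.7 CPM and 82.8, 89.3 and 81.8 CPM. The groups were again apart in both genotypes, with 0.76 (SE 0.11, adjusted p = 5.39e-08) and 0.71 (SE 0.11, adjusted p = 3.14e-07). Cox8a, the smallest subunit, changed by 0.45 (adjusted p = 6.48e-05) and 0.55 (adjusted p = 2.14e-06), and Cox5b by 0.37 and 0.50. Of the widely expressed isoforms, Cox6b1 (0.42 and 0.24) and Cox7b (0.30 and 0.17) passed in WT only, and Cox6a1 (0.21 and 0.39) in KO only. The WT call for Cox7b was lost without WT Control 24 h library 1 or 3 and without WT LPS 24 h library 2, where its value was 0.15.

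Cox4i1 and Cox6c, the highest of complex IV in mean CPM, did not pass the test. Cox6c gave 0.17 in WT and 0.16 in KO. Cox4i1 read 195, 185 and 182 CPM in WT Control and 178, 223 and 197 CPM with LPS, with overlapping groups and log2 values of 0.09 in WT and 0.12 in KO. Cox7a2 gave 0.30 and 0.27 and Ndufa4, counted with complex I by its symbol and now placed in complex IV, 0.20 and -0.07, none past the threshold. Cox7a2l, a factor that joins complexes III and IV, gave -0.02 and -0.11. Together with the weakly detected Ndufb2, Cox7a2l was 1 of 2 tested members with negative values in both genotypes. Cox6a2, the muscle isoform, was called higher in both genotypes from very few reads. Its counts were 2, 2 and 1 in WT Control and 12, 3 and 13 with LPS, and 1, 5 and 2 in KO Control and 26, 12 and 19 with LPS. The WT call was lost without WT Control 24 h library 2 or 3 and without WT LPS 24 h library 1 or 3, whereas the KO call held without any 1 library. Cox6a2 lies on the other strand from Itgad, whose counts in the same WT libraries were 3, 15 and 13 and then 2, 3 and 7. How the counting used strand is not given in the sources used here.

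In complex V, 11 of 17 subunits were higher in WT and 9 in KO. The 5 subunits of the F1 head, where ATP is formed, were all called in WT and 4 of them in KO, and of the other 12 members 6 and 5. Atp5b (chromosome 10, 128083273 to 128090391, plus strand) had the lowest adjusted p of all members in both genotypes. It read 271, 279 and 279 CPM in WT Control and 420, 501 and 448 CPM with LPS, which is higher by 0.73 on the log2 scale (SE 0.06, adjusted p = 1.17e-13). In KO it read 294, 277 and 278 CPM and 429, 427 and 441 CPM, a change of 0.61 (SE 0.06, adjusted p = 2.14e-11). Its partner Atp5a1 changed less, by 0.36 in WT (adjusted p = 3.35e-06) and 0.21 in KO (adjusted p = 0.00443). Atp5o (chromosome 16, 91925214 to 91931687, minus strand), the oligomycin sensitivity-conferring protein of the peripheral stalk, read 53.1, 55.0 and 53.3 CPM in WT Control and 87.5, 108 and 93.8 CPM with LPS. In KO it read 49.4, 50.1 and 49.98 CPM and then 94.2, 90.6 and 82.3 CPM. Its log2 fold change was 0.84 (SE 0.09) in each genotype, and no libraries overlapped.

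The 3 genes of subunit c did not move alike. Atp5g3, the most abundant, read 50.2, 40.5 and 44.9 CPM in WT Control and 57.8, 71.8 and 64.9 CPM with LPS. It was called in both genotypes, at 0.53 (adjusted p = 0.000582) and 0.39 (adjusted p = 0.011), and the KO call was lost without KO Control 24 h library 3. Atp5g1 read 22.2, 26.4 and 24.0 CPM in WT Control and 19.3, 26.8 and 24.0 CPM with LPS, groups that overlap fully. In KO Atp5g1 read 18.1, 16.2 and 17.8 CPM and 22.7, 25.8 and 26.5 CPM, and was called at 0.52 (adjusted p = 0.00236). Atp5g2 gave -0.05 in WT and 0.29 in KO, neither past the threshold. The test of the Atp5g1 difference between genotypes gave 0.58 with an adjusted p of 0.924.

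Atpif1, the inhibitor of ATP hydrolysis by ATP synthase, is not a subunit by the naming rule and moved the other way. It read 214, 230 and 228 CPM in WT Control and 168, 220 and 162 CPM with LPS, and 231, 223 and 230 CPM and then 178, 177 and 182 CPM in KO. One WT LPS library lay within the Control range and the KO groups were apart. The log2 fold change was -0.29 in WT (adjusted p = 0.0145) and -0.35 in KO (adjusted p = 0.00294). Usmg5, a small ATP synthase component also outside the rule, gave 0.54 (adjusted p = 0.0189) and 0.45 (adjusted p = 0.0599).

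**Figure D2:**
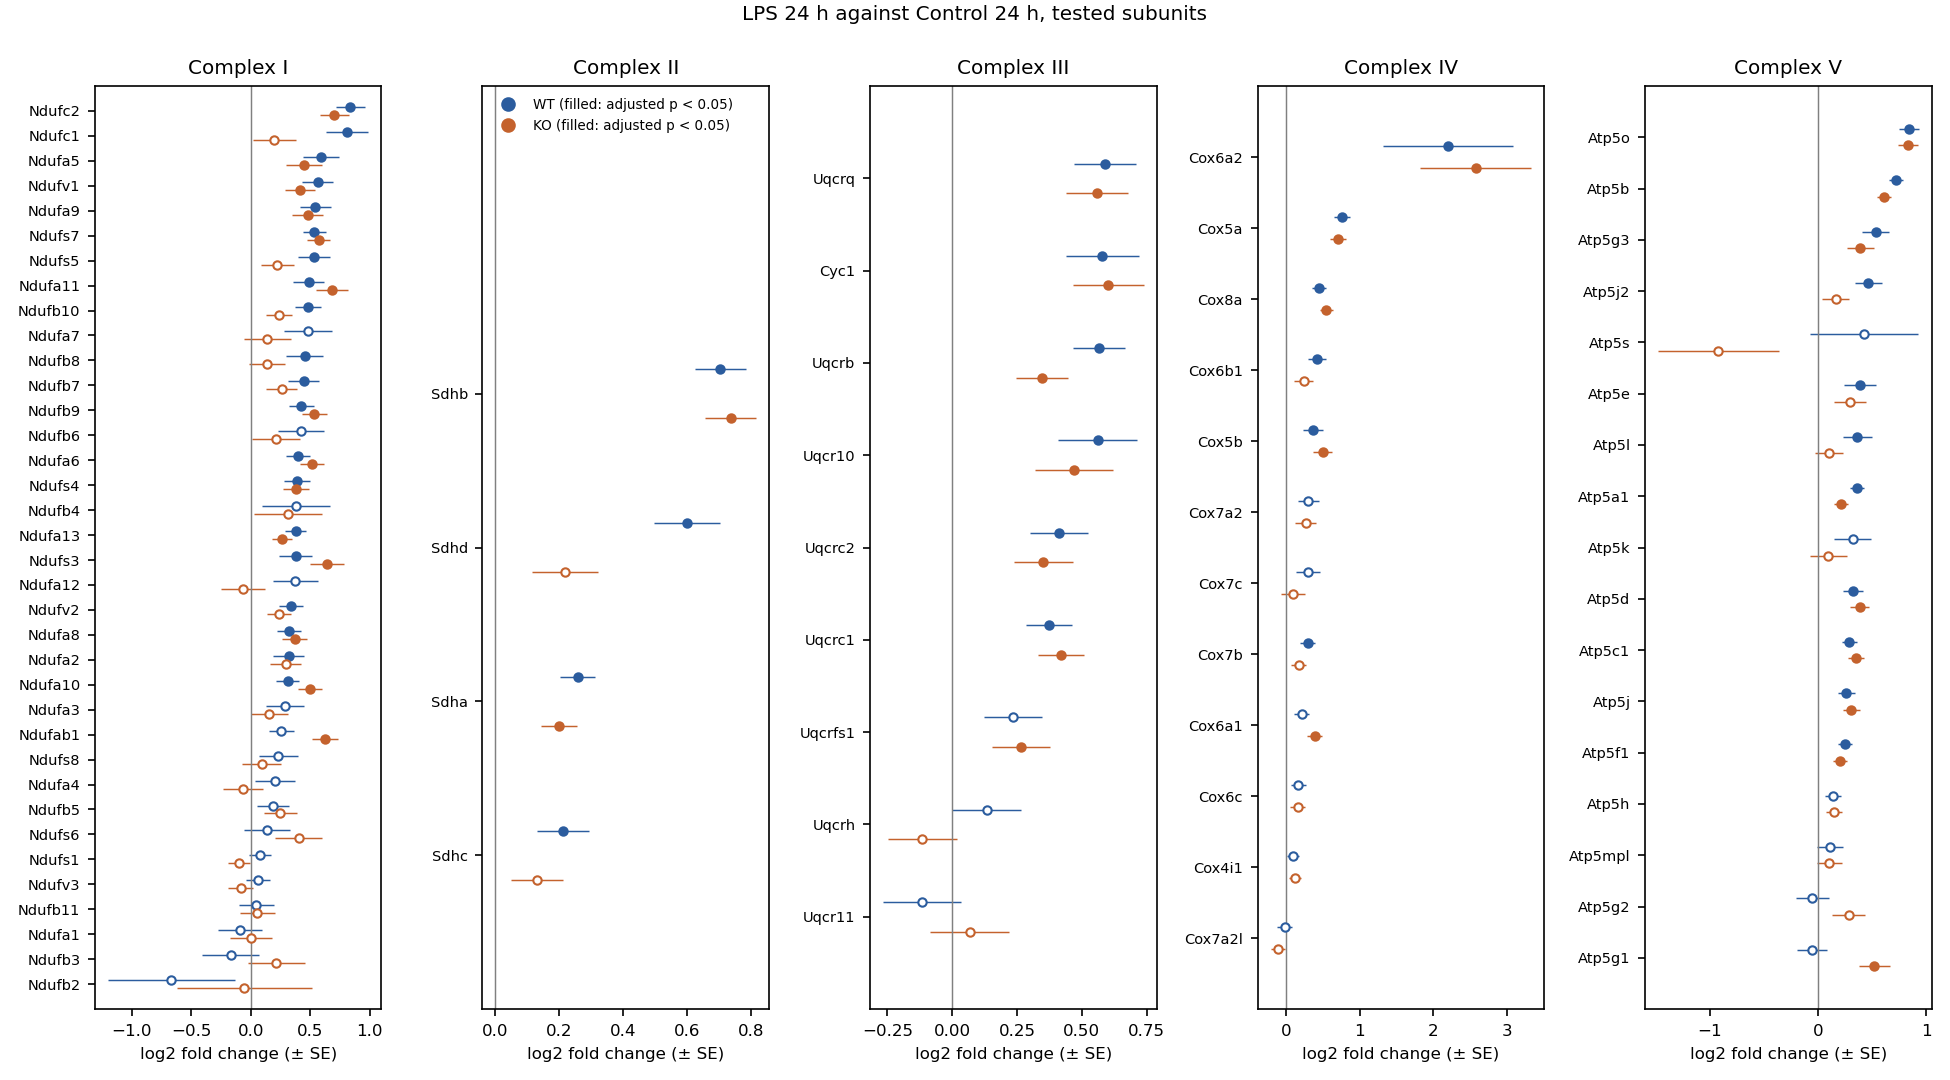
Log2 fold change (± SE) of LPS 24 h against Control 24 h for the tested subunits by complex, except for 1 of complex I that is not drawn, WT in blue and KO in orange, filled where the adjusted p was under 0.05. Filled points lie only to the right of 0, with 47 drawn in WT and 37 in KO, and Atp5b, Atp5o, Sdhb, Cox5a and Ndufc2 are filled in both genotypes.

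The lists called in WT and KO shared 33 members, which is 70.2% of the WT list and 86.8% of the KO list, and 27 tested members were called in neither. Among the 5 called in KO only were Atp5g1, Cox6a1, Ndufab1 and Uqcrfs1. Values were positive in both genotypes for 66 members and negative in both for 2. Across the 79 members, the WT and KO log2 fold changes had a Pearson r of 0.723, which fell to 0.489 without Cox6a2. Genes are not independent replicates and the value is given as a description. No difference of the LPS 24 h effect between genotypes passed the test for any member (edgeR, 0 called, 4 with an unadjusted p under 0.05, lowest adjusted p 0.924). In that comparison 0.0086% of all genes were called. Leaving out 1 library at a time gave 39 to 46 members in WT and 36 to 39 in KO.

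Members that overlap another counted gene gave similar values to those that do not. Of 49 tested members without such an overlap, 30 were called in WT and 22 in KO, with medians of 0.38 and 0.27. Of the 30 with an overlap, 17 and 16 were called, with medians of 0.29 and 0.27. Beside these changes, the macrophage marker list had 4 of 8 genes higher and 3 lower in each genotype at LPS 24 h, and the granulocyte precursor list had 1 of 6 tested genes higher in each and 3 lower in WT and 4 in KO. The summed level of the granulocyte precursor list lay between 59.3 and 65.7 CPM in WT Control 24 h and between 339 and 451 CPM with LPS, and in KO between 138 and 219 CPM and between 331 and 399 CPM. With 1 tested gene called higher and 3 or 4 lower, this sum does not describe the list as a whole. Fibroblast markers were not called. Their sum ranged from 2.57 to 45.0 CPM in WT Control 24 h libraries and from 0.171 to 2.48 CPM with LPS. In KO it ranged from 38.9 to 133 CPM in Control 24 h and from 0.56 to 174 CPM with LPS. The part of these cells in the subunit values was not tested.

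Of the 13 subunits encoded in mitochondrial DNA, 8 could be tested, and these did not follow the nuclear ones. The others, mt-Co2, mt-Co3, mt-Atp6, mt-Atp8 and mt-Nd4l, had at most 7 counts in any library, whereas mt-Co1 had a median of 13979. How multi-mapping reads were counted is not given in the sources used here. Such low counts therefore need not mean low transcript levels, and their cause was not tested. At LPS 24 h, 3 of the 8 were lower in WT and 8 of 8 in KO, with medians of -0.24 and -0.56, and 0 were higher. Over all genes tested, 19.9% were lower and 19.6% higher in WT, and 21% and 19.9% in KO. mt-Cytb, the cytochrome b of complex III, read 529, 522 and 523 CPM in WT Control and 429, 386 and 270 CPM with LPS. In KO mt-Cytb read 552, 552 and 589 CPM and then 329, 236 and 294 CPM. The groups were apart in both, with log2 fold changes of -0.54 in WT (SE 0.11, adjusted p = 4e-05) and -0.98 in KO (SE 0.11, adjusted p = 7.43e-11). So within complex III, Cyc1 was higher and mt-Cytb lower in the same libraries.

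In complex I, mt-Nd5 changed by -0.35 (adjusted p = 0.00727) in WT and -0.75 (adjusted p = 8.92e-08) in KO, and mt-Nd4 by -0.28 and -0.63. mt-Nd2 read 136, 141 and 137 CPM in WT Control and 168, 166 and 104 CPM with LPS, a change of 0.08 that did not pass, and fell in KO by 0.46 on the log2 scale. Values were more negative in KO for all 8 genes, yet no difference between genotypes passed the adjusted test. For mt-Nd2 it was -0.54 with an unadjusted p of 0.00139 by edgeR, and 6 of the 8 had an unadjusted p under 0.05. WT LPS 24 h library 3 was the lowest of its group for mt-Cytb, mt-Nd5 and mt-Nd2. The WT count was 1 without WT Control 24 h library 2 and 4 without WT LPS 24 h library 1. At LPS 2 h, 0 of the 8 were called in either genotype, with 0 at an unadjusted p under 0.05.

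**Figure D3:**
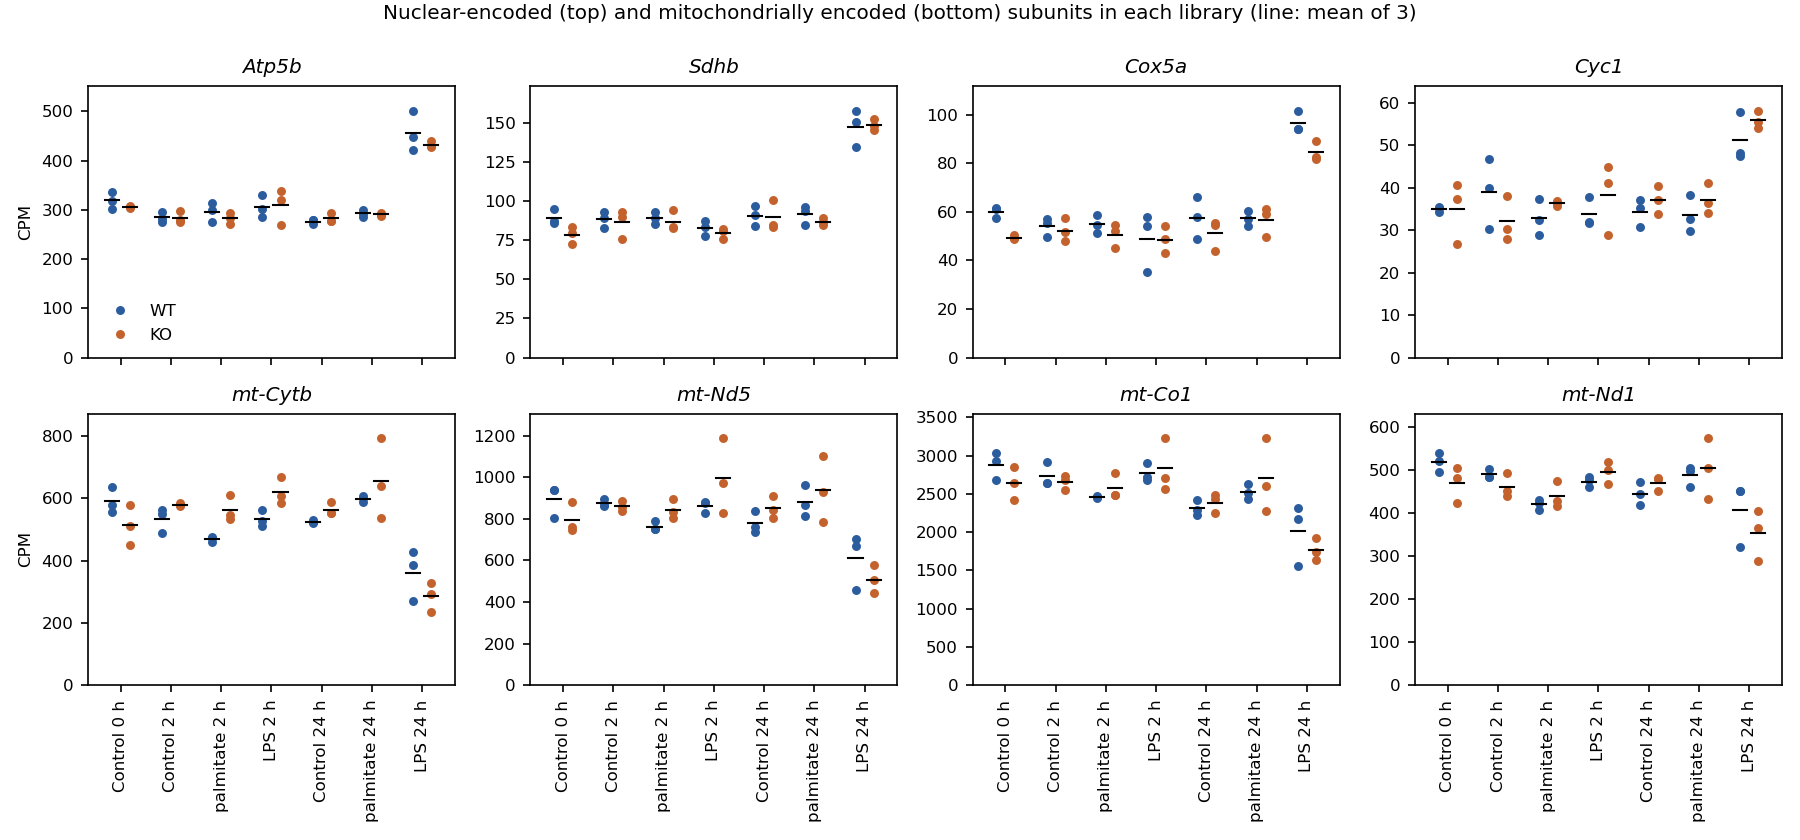
Level (CPM, axis from 0) of 4 nuclear-encoded subunits (top) and 4 subunits encoded in mitochondrial DNA (bottom) in every library of the 14 groups, WT in blue and KO in orange, with a line for the mean of 3. At LPS 24 h Atp5b, Sdhb, Cox5a and Cyc1 sit above Control 24 h, whereas mt-Cytb and mt-Nd5 sit below it.

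Genes that work with the subunits were read from fixed lists. Of 49 tested assembly factors, 15 were higher and 1 lower at LPS 24 h in WT, and 13 were higher and 0 lower in KO. Over all genes tested, 19.6% were higher and 19.9% lower in WT, and 19.9% and 21% in KO. Coa5, an assembly factor of complex IV, changed by 1.13 and 1.21, Cox17, a copper carrier for complex IV, by 0.99 and 0.63, Cox18, which inserts a complex IV subunit into the membrane, by 1.03 and 1.47, and Ndufaf3, of complex I assembly, by 1.38 and 1.03. The one called lower in WT was Atpaf1, which assembles the F1 head, at -0.59 (adjusted p = 0.0205). Cytochrome c (Cycs), the carrier between complexes III and IV, went from 37.8 ± 8.11 to 75.4 ± 5.35 CPM in WT and from 42.7 ± 3.3 to 73.1 ± 4.6 CPM in KO, or 1.02 and 0.78. Gpd2, which feeds electrons from glycerol 3-phosphate into the quinone pool, changed by 1.05 and 0.94. Of 10 tested electron entry genes, 5 were higher in WT and 2 in KO, and 0 were lower.

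Among 17 tested regulators of mitochondrial transcription and metabolism, 4 were higher and 2 lower in WT, and 6 and 4 in KO. The shares over all genes were 19.6% and 19.9% in WT and 19.9% and 21% in KO. Ppargc1b, a coactivator of mitochondrial genes, changed by 0.94 and 1.06, and its partner Esrra by 0.89 and 0.98. Hif1a, the hypoxia-inducible factor, changed by 1.12 and 0.89. Gabpa, an ETS factor known to drive subunit genes, fell by 0.31 in WT and by 0.29 in KO on the log2 scale. Nrf1 gave -0.03 and 0.27 and Tfam, the mitochondrial DNA packaging factor, 0.18 and -0.17, none past the threshold. Ppargc1a was too low to be tested. The ribosomal proteins split by compartment. Of 76 tested mitochondrial ribosomal proteins 29 were higher in WT and 27 in KO and 0 were lower, with medians of 0.34 and 0.29. Of 82 cytosolic ribosomal proteins 4 were higher and 29 lower in WT and 2 and 40 in KO, with medians of -0.18 and -0.24.

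Promoter sequences from RefSeq on GRCm38.p6, 250 bases before to 50 after each start, were found for 69 of the 86 members and for 26 of the 33 called in both genotypes. The letters GCATGCGC, the core recognised by NRF1, were looked for on both strands and stood in 10 of the 69 member promoters (14.5%), in 6.3% of 9032 tested genes and in 3.05% of all 27025 genes. The ETS letters CCGGAAG stood in 23.2% of member promoters and 21.5% of tested genes. AAGATGGC, for YY1, stood in 14.5% and 5.72%. TCAAGGTCA, for ERR-alpha, stood in only 2 of the 69 member promoters (2.9%) and in 0.321% of tested genes. AANNGAAA, a half-site of interferon regulatory factors, stood in 23.2% of member promoters, 21.6% of tested genes and 26.7% of all genes. Among the 26 promoters of members called in both genotypes, NRF1 letters stood in 5, ETS letters in 4, YY1 letters in 5, ERR-alpha letters in 1 and IRF letters in 9. Among the 23 of members called in neither, the counts in the same order were 3, 6, 2, 0 and 4. These are matches of letters and say nothing of binding.

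The sequences below show the NRF1 core in 4 members called at LPS 24 h in both genotypes and in 2 called in neither. The latter are Atp5g2, with its values given above, and Atp5k, whose values of 0.32 and 0.10 were not past the threshold. Also shown is the sequence with the ERR-alpha letters on the other strand of Atp5g3. Each is printed 5′ to 3′ on the strand of the gene, with matches in capitals, and where matches on both strands overlap the capitals join them. Windows are placed by the RefSeq start. For Ndufa8, Sdhb, Atp5g2 and Atp5k the match lies inside or at the edge of the annotated gene and only 30 bases around it are given.
Ndufa11 (chr17:56717642-56717761, plus strand): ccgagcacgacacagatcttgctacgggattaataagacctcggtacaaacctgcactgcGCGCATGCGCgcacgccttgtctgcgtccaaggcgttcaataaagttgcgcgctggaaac
Ndufa6 (chr15:82354323-82354442, minus strand): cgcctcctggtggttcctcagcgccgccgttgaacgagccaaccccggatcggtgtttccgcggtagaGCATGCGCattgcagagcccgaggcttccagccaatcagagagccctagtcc
Ndufa8 (chr2:36049339-36049368, minus strand): gcgcttgcgcgtcgctggagacGCATGCGC
Sdhb (chr4:140961206-140961235, plus strand): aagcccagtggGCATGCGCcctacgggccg
Atp5g2 (chr15:102671069-102671098, minus strand): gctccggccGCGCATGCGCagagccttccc
Atp5k (chr5:108434429-108434458, minus strand): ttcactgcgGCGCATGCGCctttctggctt
Atp5g3 (chr2:73911327-73911446, minus strand): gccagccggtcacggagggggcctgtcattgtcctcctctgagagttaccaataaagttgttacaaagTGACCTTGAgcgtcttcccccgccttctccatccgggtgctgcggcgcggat

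After 2 h of LPS the subunits had hardly moved, although 14% of all genes were called higher and 9.1% lower in WT. One member was called, Atp5o, which was lower. It read 59.6, 62.2 and 53.0 CPM in Control 2 h and 47.2, 51.6 and 46.8 CPM with LPS, groups that did not overlap, and differed by -0.26 on the log2 scale (SE 0.10, adjusted p = 0.0487). This is the opposite direction to its change at 24 h. Without WT LPS 2 h library 2 there were 2 members called, and without WT LPS 2 h library 1 or 3, or WT Control 2 h library 1 or 2, there were 0. The median over members was -0.02, and 4 had an unadjusted p under 0.05. Their share of raw counts was 0.481% in Control 2 h and 0.425% with LPS, whose 3 libraries had TMM scaling factors of 0.875 to 0.905.

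In KO at 2 h, 6 members were called, where 14.7% of all genes were called higher and 9.16% lower. Of these, 2 were higher, among them Atp5a1 by 0.21 (adjusted p = 0.0111), and 4 were lower. The lower ones were Atp5e, the epsilon subunit of F1 (-0.53, adjusted p = 0.0144), Cox6b1 (-0.41, adjusted p = 0.0256), Ndufb8 (-0.46, adjusted p = 0.0333) and Ndufa10 (-0.28, adjusted p = 0.0437). Atp5e read 22.6, 29.7 and 23.6 CPM in Control and 11.01, 21.5 and 17.9 CPM with LPS. Cox6b1 read 49.9, 51.7 and 56.3 CPM and then 23.5, 44.4 and 46.7 CPM. In each of the 4 lower members KO LPS 2 h library 1, the shallowest of all libraries with 2848793 counts, was the lowest of its group. Without it 2 members were called, without KO LPS 2 h library 2 there were 14, and without KO Control 2 h library 2 there was 1. The median over members was -0.10.

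The effect at 24 h exceeded the effect at 2 h by the test of the difference itself. In WT 32 members had a larger log2 fold change at 24 h and 0 a smaller one, against 14.5% of all genes called in that direction, and the median difference was 0.38. In KO it was 37 members and 0, against 14.3% of all genes, with a median of 0.39. Atp5o differed by 1.1 in WT and 0.73 in KO, Sdhb by 0.80 and 0.85, and Cox5a by 0.86 and 0.80. The WT count was 21 without WT LPS 24 h library 2, the library with the highest summed level. The assembly factors had 6 of 49 lower and 0 higher at 2 h in each genotype. At that time 14% of all genes were higher and 9.1% lower in WT, and 14.7% and 9.16% in KO. The count of lower assembly factors thus lay near the share of all genes called lower. Lower in both genotypes were Tmem126b (-1.07 and -1.26) and Tmem186 (-0.91 and -1.16), both of complex I assembly. So were Coa7 (-1.1 and -0.79) and Taco1 (-1.40 and -0.999), both of complex IV. The effect of LPS at 2 h did not differ between genotypes for any member (edgeR, 0 called, 5 with an unadjusted p under 0.05), nor for any gene (0% called).

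**Figure D4:**
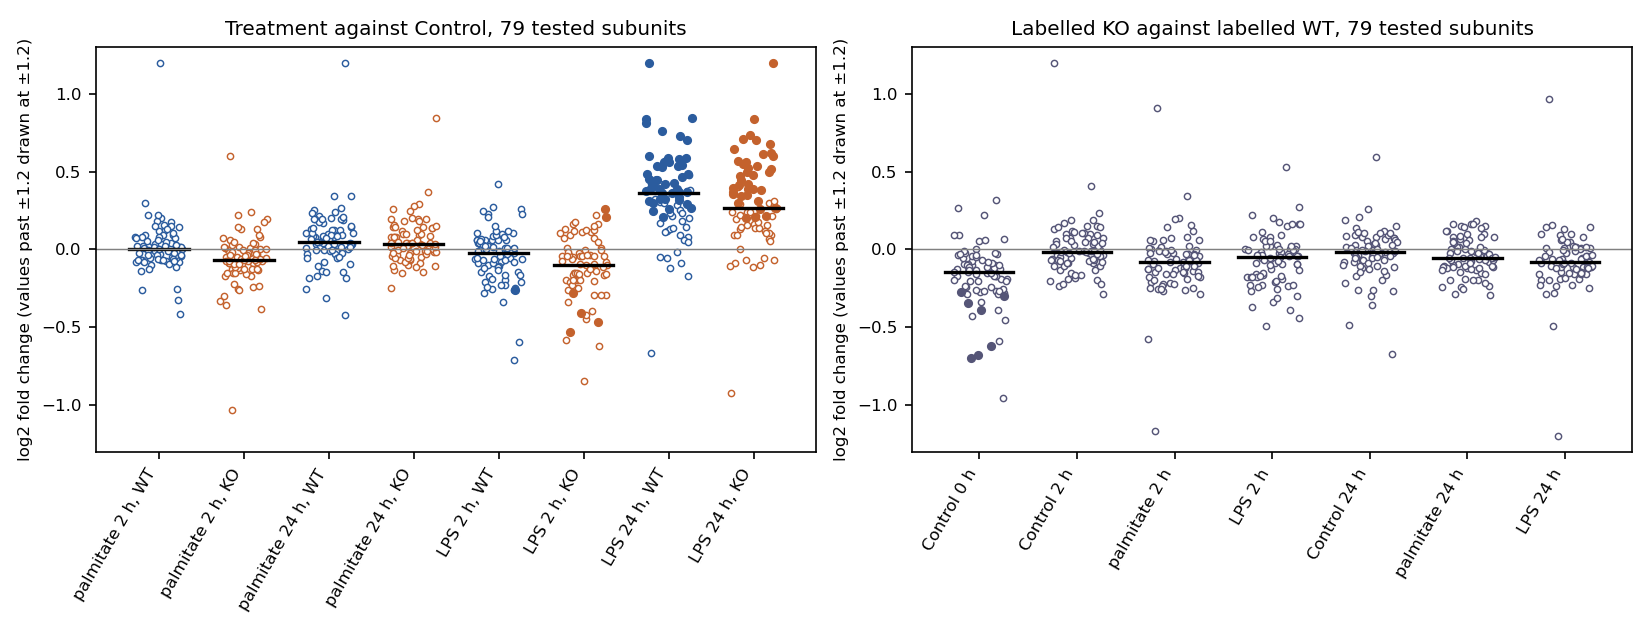
Log2 fold change of the 79 tested subunits in the 8 treatment comparisons (left) and in labelled KO against labelled WT in 7 conditions (right), 1 point a gene, filled where the adjusted p was under 0.05, with a line at the median. Only LPS 24 h has its median well above 0 (0.36 and 0.27), palmitate has no filled point, and Control 0 h has 7 filled points below 0.

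Palmitate gave no call for any subunit by edgeR, and none by DESeq2. In WT, 0 members had an unadjusted p under 0.05 at 2 h and 5 at 24 h, while 0.275% and 0.852% of all genes were called. In KO there were 2 and 2, with 0.112% and 0.877% of all genes called. Median log2 fold changes were 0.00 and 0.05 in WT and -0.07 and 0.03 in KO. The same libraries had Plin2, the lipid droplet coat protein, higher by 1.99 and 2.02 at 24 h, Angptl4 by 3.20 and 3.61 and Cpt1a, which admits fatty acids to mitochondria, by 0.98 and 0.92. The summed level of all members was 4937 ± 286 CPM in WT palmitate 24 h and 4747 ± 41.8 CPM in its Control, and 4807 ± 158 and 4693 ± 108 CPM in KO, with overlapping libraries. Of the single complexes, only the sum of complex II in WT at 24 h lay apart from Control, 5.67% higher in the mean. That sum carries no test. The palmitate effect did not differ between genotypes for any member by edgeR (0 called of 79, 0% of all genes at 2 h and 0% at 24 h), with 1 and 3 members at an unadjusted p under 0.05. Palmitate and LPS comparisons of a time share their Control libraries.

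Between the libraries labelled KO and WT, subunits were called only at Control 0 h. There, 7 of 79 tested members were lower in KO and 0 higher, where 6.06% of all genes were called lower. The count of lower members was thus near the share of all genes. Values were negative for 70 of 79 members, and the median was -0.15, against 0.00 over all genes tested. Atp5e read 34.4, 30.2 and 32.7 CPM in WT and 21.4, 19.5 and 19.8 CPM in KO, a log2 difference of -0.68 (SE 0.15, adjusted p = 0.0017). Atp5g2 read 29.1, 22.7 and 26.7 CPM in WT and 14.1, 18.7 and 18.2 CPM in KO, or -0.62 (adjusted p = 0.00279). Ndufa7, an accessory subunit of complex I, read 23.0, 17.7 and 21.7 CPM in WT and 10.99, 13.4 and 14.03 CPM in KO, or -0.69 (adjusted p = 0.014). The groups of all 3 genes were apart. Smaller differences were called for Cox5b (-0.39), Ndufb9 (-0.34), Ndufv2 (-0.30) and Ndufa13 (-0.27). Without WT Control 0 h library 1 or KO Control 0 h library 1 the count was 3, and without WT or KO Control 0 h library 3 it was 4.

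Other measures moved with the genotype labels at Control 0 h. Cytosolic ribosomal proteins had 27 of 82 lower and 0 higher, with a median of -0.22, and the 892 tested genes with under 1500 bases of exons had 76 lower and 17 higher, with a median of -0.13. The median exon length of the tested members was 1718 bases, against 4487 over all genes tested. Summed fibroblast markers were 0.397 to 0.905 CPM in WT, with Dcn at 0, and 41.6 to 68.7 CPM in KO, and all 3 tested were higher in KO. Granulocyte precursor markers summed to 50.8 to 61.3 CPM in WT and 81.7 to 87.7 CPM in KO, with 1 of 6 called higher. Of 8 macrophage markers 5 were lower and 1 higher in KO. The part of any of these in the subunit differences was not tested.

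In the other 6 conditions no member differed between KO and WT at an adjusted p under 0.05 by edgeR. The summed level of all members was still lower in KO in each, by -1.12% to -4.72%, with overlapping libraries. At Control 0 h it differed by -9.27%, without overlap. Sums of complexes IV and V at palmitate 2 h, and of complex V at Control 2 h, were also lower in KO without overlap. These sums carry no test. At Control 2 h 4 members had an unadjusted p under 0.05, with 0.49% of all genes called, and at Control 24 h 3 had, with 0.12% called. With palmitate the numbers were 7 and 0.146% at 2 h and 5 and 0.0688% at 24 h. With LPS they were 6 and 0.465% at 2 h and 4 and 0.146% at 24 h. Without KO LPS 2 h library 2, 1 member was called at LPS 2 h. With the unadjusted threshold used by the study and a log2 limit of 1, 1 member was lower at LPS 24 h, with edgeR and with DESeq2, and 0 were called at Control 0 h. It was Atp5s, counted with complex V by its symbol and named Dmac2l in RefSeq. Its counts were 14, 13 and 14 in WT and 9, 6 and 2 in KO.

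The Control 0 h libraries of WT were also compared with later WT Controls. At 2 h, 7 of 79 tested members were lower than at 0 h, where 5.85% of all genes were. At 24 h 8 were lower, where 6.42% of all genes were, and the medians were -0.14 at both times. Both counts lay near the share of all genes. Atp5g2 had the lowest adjusted p at 24 h, with 17.7, 14.9 and 18.4 CPM against the 29.1, 22.7 and 26.7 CPM at 0 h, or -0.62 (adjusted p = 0.00201). It was lower at 2 h too, by -0.59 (adjusted p = 0.00237). In KO, 1 member was lower at 2 h, where 5.59% of all genes were, and 0 at 24 h by edgeR, with 8 at an unadjusted p under 0.05 and 4.46% of all genes lower. Cytosolic ribosomal proteins had 66 of 82 lower at 24 h in WT and 15 in KO. The WT Control 0 h libraries serve both these comparisons and the genotype comparison, so they share what is particular to them. The 2 h count in WT was 1 without WT Control 2 h library 2, 2 without library 1, 3 without library 3 or WT Control 0 h library 3, and 4 without WT Control 0 h library 1. The 24 h count in WT was 3 without WT Control 24 h library 3, 4 without WT Control 0 h library 3, and 5 without WT Control 24 h library 2 or WT Control 0 h library 1, and with only the compared libraries 17 members were called.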

How the data were processed

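RNA-seq had been made by the study from ribosome-depleted total RNA with a stranded low-input kit and paired-end sequencing. The authors deposited raw counts per gene, and per the labels reads were trimmed with fastp 0.19.11 and aligned with STAR 2.7.3a to mm10. How strand and multi-mapping reads were handled is not given in the sources used here. Columns carry group names only, so libraries 1 to 3 of a group are numbered in column order, as names. Gene positions are those of GENCODE on GRCm38.

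Counts were tested with edgeR 4.0.16 in R 4.3.3 (TMM, filterByExpr by group, quasi-likelihood F test, 1 mean for each of 14 groups over all 42 libraries, no block). Called means a Benjamini-Hochberg adjusted p under 0.05 over all 11624 genes tested, and this holds for every adjusted p in the text. Standard errors were taken from the F statistic and the log2 fold change. Levels in CPM use TMM scaling, and levels between genes are compared per kilobase of exons. Library totals of 2848793 to 7743442 counts set the precision of low genes. DESeq2 1.42.0, other filters, scalings and library sets were tried as alternatives, and the fitting script was tested on simulated data.

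Members, lists and tests were chosen with earlier results of these data known. Named members are all those not tested, up to 12 called per direction and comparison by adjusted p, complex II, Cyc1, Ndufa4, subunit c and the complex IV isoforms, and from other lists up to 4 called per direction besides fixed regulators. Shares of promoters with a motif, and genes shown for one, follow the motif search. No set test was run. One member, counted in every total, is not reported here by name.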

Additional observations from a re-analysis of the deposited data

Results flagged for a closer look

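The effect of LPS differed between 24 h and 2 h by a test of the difference itself (edgeR quasi-likelihood test, adjusted over all genes), for 32 members in WT and 37 in KO, all with the larger value at 24 h. In WT the differences with the lowest adjusted p were those of Atp5o (1.1 on the log2 scale), Sdhb (0.80), Atp5b (0.62), Cox5a (0.86) and Sdhd (0.74). In KO they were those of Sdhb (0.85), Ndufa10 (0.77), Atp5o (0.73), Atp5b (0.48) and Cox5a (0.80). Each time has its own Control libraries.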

How the results depend on the processing

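No paired analysis was possible because the columns of the count table carry group names without replicate numbers. Of log2 fold changes of named members over all alternatives, 693 kept their direction and side of the threshold, 115 lost the call, 3 gained it and 8 changed sign. The count at LPS 24 h was 39 to 46 in WT and 36 to 39 in KO without 1 library. At LPS 2 h in WT it was 0 in place of 1 with all genes of at least 1 count, with only the compared libraries and with DESeq2, and 0 to 2 without 1 library. At LPS 2 h in KO it was 2 in place of 6 with only the compared libraries, and 1 to 14 without 1 library. For KO against WT at Control 0 h it was 0 in place of 7 at the threshold of the study with edgeR or DESeq2 (the latter added after seeing the data), and 3 to 6 without 1 library. At LPS 24 h between genotypes it was 1 at that threshold with either tool. At LPS 2 h between genotypes it was 0 to 1 without 1 library. Control 24 h against 0 h gave 17 in place of 8 in WT and 1 in place of 0 in KO with only the compared libraries, and 3 to 10 in WT and 0 to 1 in KO without 1 library. Control 2 h against 0 h in WT gave 1 to 7. The difference of LPS effects between 24 h and 2 h gave 21 to 37 in WT and 28 to 38 in KO. The mitochondrially encoded genes gave 1 to 4 in WT and 7 to 8 in KO. Without 1 library, signs changed only for values near 0. At LPS 24 h in WT the values ranged from -0.163 (without LPS library 2) to 0.0659 (without LPS library 1) for Atp5g1, from -0.139 (without Control library 2) to 0.0273 (without LPS library 3) for Atp5g2, and from -0.0702 (without LPS library 2) to 0.0603 (without LPS library 1) for Cox7a2l. In KO Ndufa4 ranged from -0.209 (without LPS library 1) to 0.0297 (without Control library 1). For each of these the cause was not tested. Members with few counts, such as Cox6a2, Ndufb2 and Atp5s, are limited by depth.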
